A study of Mus musculus with 10 samples.

Results

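The genes described here are Cga and 7 further genes known for their place in the pituitary lineage: Lhb, Fshb, Tshb, Pomc, Pou1f1, Lhx3 and Pitx1. They were read in teratomas from probe sets whose annotation names exactly 1 of them, with the highest-mean probe set standing for a gene. Of the 8 listed genes, 7 were measured, out of 18820 genes named by such probe sets, each of the 7 through a single probe set. Pou1f1, the POU factor of growth hormone, prolactin and thyrotropin cells, was not analysed here. The set was chosen by the measured rise of Cga in P81S teratomas, so the Cga values are a description with no test.

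There were 4 P81S, 3 R167Q and 3 wildtype arrays, named for the human VHL cDNA that the tumour cells carried. All 10 teratomas came from J1 mouse embryonic stem cells without functional mouse Vhl, grew under the skin of female nude mice and were taken at up to 1 cm. The labels describe P81S tumours as resistant to apoptosis and wildtype and R167Q tumours as apoptotic. The 4 P81S arrays stand for 2 replicates of each of 2 clones, without a label for the clone of each array, and clone and genotype cannot be told apart. The tumours hold host cells as well as donor cells. In such bulk tissue, fewer cells of a type and less RNA per cell cannot be told apart. Whether replicates are separate cultures or hosts is not stated in the sources used here, so p-values measure only the spread between these teratomas.

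The anterior pituitary forms from Rathke's pouch, a fold of oral ectoderm that meets the floor of the developing hypothalamus. Cga encodes the alpha subunit that luteinising hormone, follicle-stimulating hormone and thyrotropin share, and each of these hormones takes its identity from a beta subunit, encoded by Lhb, Fshb or Tshb. In the mouse embryo Cga is an early hormone gene of the pouch and comes on before the beta subunits. Pomc encodes the precursor of corticotropin and melanotropins, and Pitx1 and Lhx3 encode homeodomain factors needed for the pouch and its hormone cells.

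Expression values are log2 units of the deposited table, and a difference of 1 is a doubling. The array medians ran from 6.97 to 7.11. The mean of 8 squamous epithelium markers was 8.92 in P81S replicate 1 and 6.48 to 6.82 in the other P81S arrays, against 6.26 to 6.67 in R167Q and 6.27 to 6.63 in wildtype arrays, so results that rest on P81S replicate 1 are given with and without it. The probe set for Vhl read 8.49 to 8.90 in P81S and 6.83 to 7.21 in R167Q arrays, against 6.85 to 6.95 in wildtype arrays. The mean of 3 Y-linked genes was 8.42 to 9.28 in P81S and 9.12 to 9.52 in R167Q arrays, against 4.26 to 4.70 in wildtype arrays, although J1 is a male line. The part of these differences in the results below was not tested. A signal over background is not known for any probe set, since no detection calls were used.

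Cga was far higher in every P81S teratoma than in any other tumour. It read 9.25, 7.97, 8.70 and 11.33 in P81S replicates 1 to 4, 5.68, 5.28 and 5.66 in the R167Q arrays and 5.19, 5.54 and 5.55 in the wildtype arrays. The P81S arrays lay above both other genotypes without overlap, as they did for 19.9% of all genes against wildtype and for 16.5% against R167Q, whereas R167Q and wildtype arrays overlapped each other. Between the lowest P81S array and the highest array of the other genotype lay 2.30 log2 units for R167Q and 2.43 for wildtype. Cga averaged 9.32 ± 1.44 in P81S, 5.54 ± 0.23 in R167Q and 5.43 ± 0.20 in wildtype arrays (SD, n = 4, 3 and 3). The log2 difference was 3.89 ± 0.60 (model SE) between P81S and wildtype, a 14.8-fold difference, and 3.78 ± 0.60 between P81S and R167Q, a 13.7-fold difference. P81S therefore stood above R167Q and wildtype, and the last 2 did not differ beyond their spread. The log2 difference between R167Q and wildtype was 0.11 ± 0.64 (model SE), and -0.007 without wildtype replicate 1.

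The size of the Cga signal varied more among P81S tumours than that of most genes. P81S replicates 1 to 4 stood 14.2-fold, 5.84-fold, 9.68-fold and 59.9-fold above the wildtype mean, and the highest stood 10.3-fold above the lowest. The range over P81S arrays was 3.36 log2 units for Cga, against a median of 0.45 over all genes, and 99.6% of genes had a smaller range. The array rich in squamous markers, replicate 1, lay below replicate 4 for Cga and above replicates 2 and 3. The part of squamous tissue in the Cga values was not tested. Leaving out replicate 4 gave a 9.28-fold difference from wildtype and leaving out replicate 2, the lowest for Cga, a 20.2-fold difference. Without replicate 1 the difference was 15.0-fold.

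**Figure D1:**
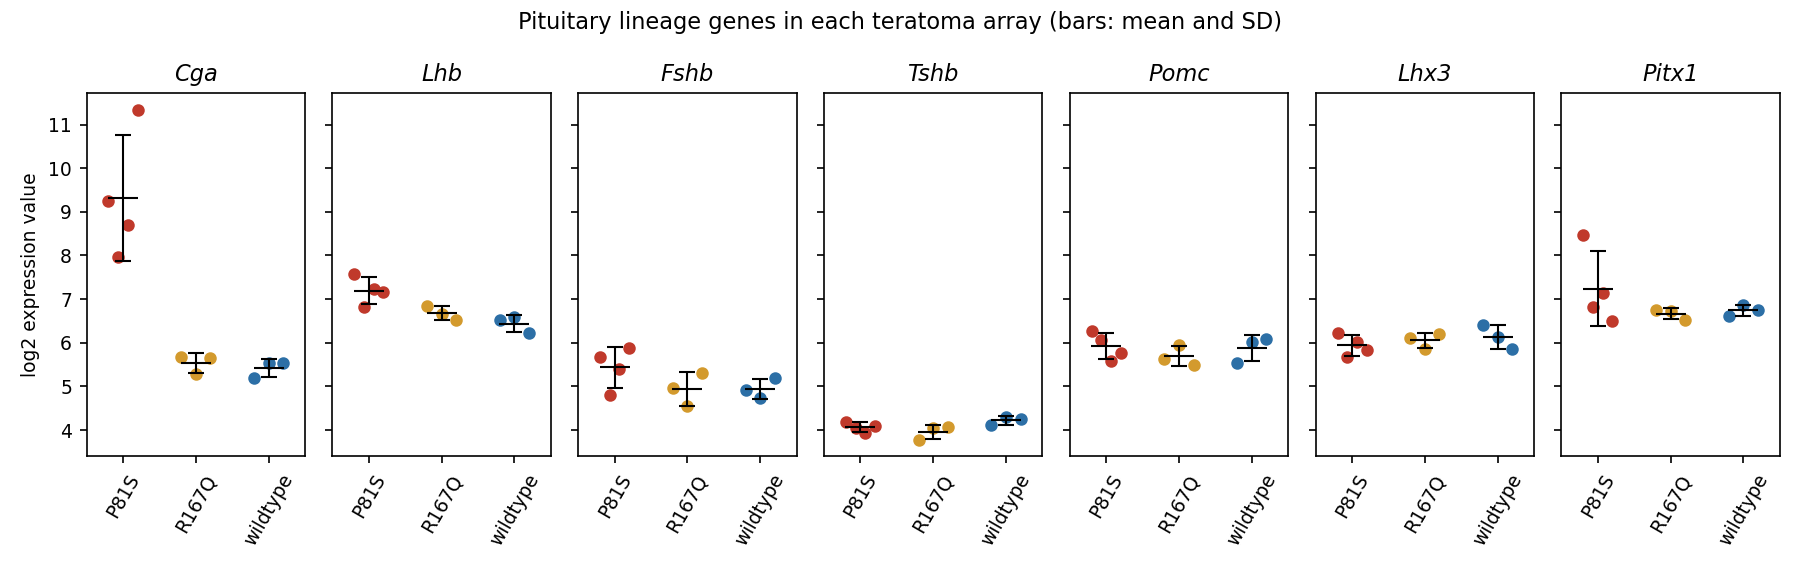
The log2 expression value of each measured gene (y axis) in each array, with P81S, R167Q and wildtype arrays from left to right in each panel. Points are arrays and black bars are the group mean and SD (n = 4, 3 and 3). Cga lies at 7.97 or above in all 4 P81S arrays and at 5.68 or below in the 6 others, while levels of different genes come from different probes and are not comparable.

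Lhb, the beta subunit of luteinising hormone, was also higher in P81S than in wildtype teratomas, by a much smaller amount. It read 7.57, 6.82, 7.22 and 7.17 in the P81S arrays, 6.85, 6.67 and 6.53 in the R167Q arrays and 6.51, 6.59 and 6.22 in the wildtype arrays. All P81S arrays lay above all wildtype arrays, while the lowest P81S array fell just under the highest R167Q array. Against wildtype the log2 difference was 0.76 ± 0.19 (95% interval 0.34 to 1.17), a 1.69-fold rise, with a limma adjusted p of 0.00908. Without P81S replicate 1 it was 0.63, with an adjusted p of 0.0137. Without P81S replicates 3 and 4 together it was 0.75, and the adjusted p of 0.0523 no longer passed. Against R167Q the log2 difference was 0.51 (interval 0.10 to 0.93) with an adjusted p of 0.0750. Between R167Q and wildtype it was 0.24, with an adjusted p of 0.743.

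Lhb was the single member that passed among the 6 tested in P81S against wildtype, where 34.7% of all genes passed in either direction, 17.2% as higher and 17.5% as lower. In P81S against R167Q 0 of 6 passed, against 22.5% of all genes either way and 12.4% higher. Lhb alone had an unadjusted limma p under 0.05 there. In R167Q against wildtype 0 of 6 passed, against 0.0903% of all genes. Tshb alone had an unadjusted limma p under 0.05 there. The 3 comparisons share arrays with one another. A count of 1 in 6 in P81S against wildtype is no higher a share than that of all genes.

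The promoters of Cga and Lhb are printed because these were the members whose P81S arrays all lay above all wildtype arrays. Each is the 250 bases before a RefSeq start in GRCm38.p6 on the plus strand, chr4:34893529-34893778 for Cga and chr7:45420696-45420945 for Lhb. The Lhb window lies inside the RefSeq span of the gene, 45417608 to 45421855, so its start is not the outermost one. Capitals mark motif matches.
Cga: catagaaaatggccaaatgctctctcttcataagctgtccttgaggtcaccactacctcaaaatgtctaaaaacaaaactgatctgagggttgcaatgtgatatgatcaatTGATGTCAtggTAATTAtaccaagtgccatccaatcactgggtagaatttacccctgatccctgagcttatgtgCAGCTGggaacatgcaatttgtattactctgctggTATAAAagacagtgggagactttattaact
Lhb: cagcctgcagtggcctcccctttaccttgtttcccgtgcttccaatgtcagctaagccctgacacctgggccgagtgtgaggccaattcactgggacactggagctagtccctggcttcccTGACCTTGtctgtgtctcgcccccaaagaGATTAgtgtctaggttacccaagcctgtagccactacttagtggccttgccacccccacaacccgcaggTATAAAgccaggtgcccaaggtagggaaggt
Motifs were searched on both strands, and they were chosen for factors known at pituitary promoters with these sequences in view. The Cga window holds the core TATAAA 30 to 25 bases before the start, and 12.4% of the 32851 RefSeq windows of the same length hold one. The other Cga matches are TGATGTCA, the mouse Cga form of the cAMP response element (2.93% of windows), TAATTA, a homeodomain core (4.84%), and CAGCTG, an E-box (13.0%). The palindromic element TGACGTCA (1.55% of windows) is not in the letters of either window. The Lhb window holds TATAAA 31 to 26 bases before the start. It also holds TGACCTTG, a site of steroidogenic factor 1 (1.33% of windows), 129 to 122 bases before the start, and on the other strand TAATC, the core bound by PITX factors (19.8% of windows). TGACCTTG and TAATC were not found in the Cga window. Only these exact letters were searched, so other forms of the same sites could have been missed there. These are matches of letters only, and no motif overlapped another.

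The beta subunits of the other glycoprotein hormones did not pass. Fshb, the beta subunit of follicle-stimulating hormone, read 5.66, 4.79, 5.40 and 5.89 in P81S arrays, 4.97, 4.55 and 5.31 in R167Q arrays and 4.92, 4.73 and 5.19 in wildtype arrays. Its P81S arrays overlapped those of both other genotypes, P81S replicate 2 being low. The log2 difference was 0.49 against wildtype (95% interval -0.08 to 1.06, limma adjusted p = 0.176) and 0.49 against R167Q (adjusted p = 0.209). Without P81S replicate 2 it was 0.70 against wildtype and 0.71 against R167Q, and both then passed, with limma adjusted p of 0.0295 and 0.0413. Tshb, the beta subunit of thyrotropin, read 4.19, 4.05, 3.92 and 4.08 in P81S arrays, 3.77, 4.04 and 4.08 in R167Q arrays and 4.11, 4.30 and 4.24 in wildtype arrays. The log2 difference was -0.16 between P81S and wildtype (interval -0.39 to 0.08, limma adjusted p = 0.296). It was -0.26 between R167Q and wildtype (limma adjusted p = 0.503), where all R167Q arrays lay below all wildtype arrays, as they did for 12.4% of all genes.

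Pomc and the homeodomain factors did not pass in any of the 3 comparisons. Pomc read 6.27, 6.06, 5.59 and 5.77 in P81S arrays, 5.63, 5.94 and 5.49 in R167Q arrays and 5.53, 6.01 and 6.08 in wildtype arrays, with all groups overlapping. Its log2 difference between P81S and wildtype was 0.05 (95% interval -0.40 to 0.50, limma adjusted p = 0.886). Lhx3, which the pouch and most hormone cells need, also overlapped between all groups. It read 6.23, 5.67, 6.01 and 5.83 in P81S arrays, 6.11, 5.85 and 6.20 in R167Q arrays and 6.41, 6.14 and 5.86 in wildtype arrays. The log2 difference was -0.20 between P81S and wildtype (interval -0.60 to 0.20, limma adjusted p = 0.445).

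Pitx1, a factor of oral ectoderm, pituitary and hindlimb, was high in 1 P81S tumour. It read 8.47 in P81S replicate 1 and 6.83, 7.15 and 6.50 in the other P81S arrays, against 6.74, 6.73 and 6.53 in R167Q arrays and 6.62, 6.86 and 6.76 in wildtype arrays. The log2 difference was 0.49 between P81S and wildtype (95% interval -0.32 to 1.31, limma adjusted p = 0.347) and 0.08 without P81S replicate 1. Replicate 1 was also the array with the high squamous marker mean of 8.92, and the part of that epithelium in the Pitx1 value was not tested.

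**Figure D2:**
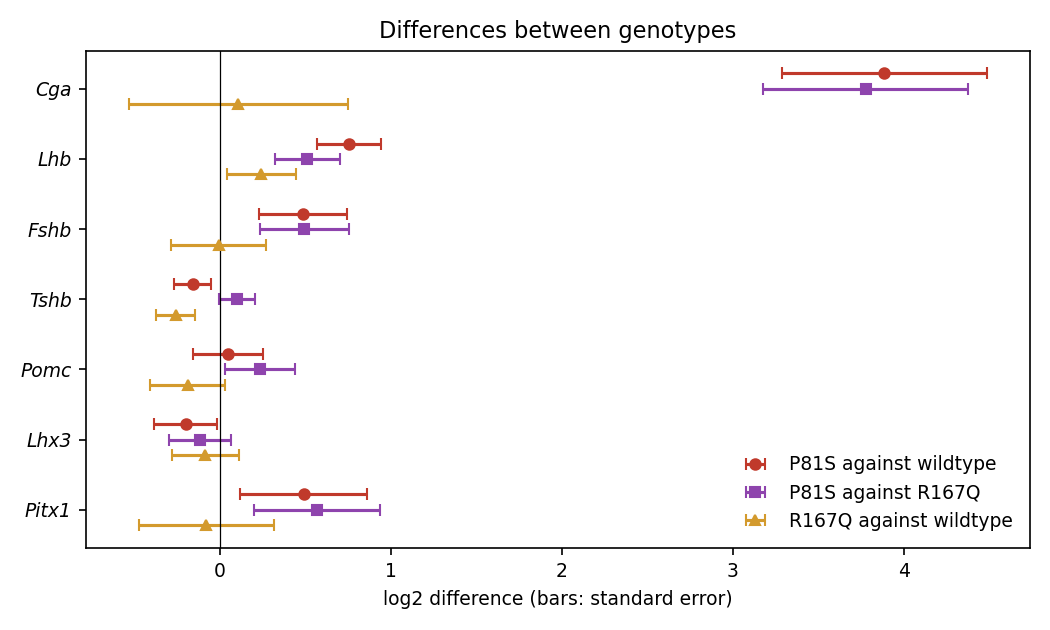
The log2 difference (x axis) of each measured gene in the 3 comparisons, with bars for the standard error of the limma model. Cga stands at 3.89 and 3.78 in the P81S comparisons, while the differences of the 6 other genes lie between -0.26 and 0.76.

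The wider hormone list added Gh and Prl, the growth hormone and prolactin genes. Of its 6 genes other than Cga, 2 rose in P81S against wildtype and 0 fell, where 17.2% of all genes rose and 17.5% fell. The median log2 difference was 0.27, against 0.01 over all genes. The second was Prl, which ranged from 4.40 to 4.99 in P81S and from 4.25 to 4.28 in wildtype arrays (log2 difference 0.46 ± 0.14, limma adjusted p = 0.0230). Against R167Q, where Prl ranged from 4.10 to 4.36, the log2 difference was 0.53 with a limma adjusted p of 0.0177, and this call was lost without R167Q replicate 1 or 3 (limma adjusted p = 0.0793 and 0.0711), with the replicate block (0.0579) and without P81S replicates 3 and 4 together (0.129). The call against wildtype was lost without P81S replicate 3 or 4, without any 1 of the wildtype arrays, and with the replicate number as a block (limma adjusted p = 0.0519 to 0.0650). It was also lost without P81S replicates 3 and 4 together (log2 difference 0.29, limma adjusted p = 0.170). With dim genes left out, Prl was removed, and the hormone genes that rose were 1 against wildtype and 0 against R167Q. Gh differed by 0.09 (limma adjusted p = 0.665). Of the related subunit genes Gpha2 and Gphb5, which encode thyrostimulin, 0 of 2 passed in any comparison.

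Of 18 pituitary transcription factors measured, 2 rose and 4 fell in P81S against wildtype, shares near the 17.2% and 17.5% of all genes, and the median log2 difference was 0.21. Isl1, a LIM factor of gonadotrophs and of many neurons, averaged 9.30 in P81S and 7.86 in wildtype arrays, a 2.71-fold rise (limma adjusted p = 0.00148), and Six3, of the forebrain and pouch, rose by 1.32 log2 units (limma adjusted p = 0.00143). Hesx1, an early repressor of the pouch and anterior neural plate, averaged 5.24 in P81S, 6.17 in R167Q and 7.18 in wildtype arrays. Hesx1 fell by 1.94 on the log2 scale in P81S against wildtype (limma adjusted p = 1.96e-05) and by 0.93 in P81S against R167Q (limma adjusted p = 0.00149). Gata2, a factor of gonadotrophs and thyrotrophs, fell by 1.51, Sox3 by 0.58 and Sox2, named outside the rule after its value was seen, by 0.41 on the log2 scale. The count of 2 that rose was 4 without P81S replicate 3 or 4, and 3 without P81S replicate 2 or R167Q replicate 2 or 3. Without P81S replicates 3 and 4 together 6 rose and 2 fell, and with array weights 5 rose. The P81S tumours differed in the mean of the 18 factors, which was 7.90, 7.79, 7.45 and 7.46 in replicates 1 to 4. It was 7.37 to 7.50 in R167Q and 7.45 to 7.58 in wildtype arrays. In P81S against R167Q 3 rose and 3 fell, and 1 rose without P81S replicate 2 or R167Q replicate 1 or 3. In R167Q against wildtype Hesx1 was the 1 factor that passed, with a log2 difference of -1.01 (limma adjusted p = 0.0460), and this call was lost when any 1 of the R167Q or wildtype arrays was left out (limma adjusted p up to 0.271).

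Of 10 pituitary receptors for releasing hormones and feedback signals, 5 rose and 0 fell in P81S against wildtype, where 17.2% of all genes rose, and the median log2 difference was 0.84. In P81S against R167Q 3 of 10 rose, where 12.4% of all genes rose, and the count was 5 without P81S replicate 1 and 1 with the replicate block. Trhr, the receptor of thyrotropin-releasing hormone, averaged 7.88 in P81S, 6.66 in R167Q and 5.67 in wildtype arrays, a 4.62-fold rise over wildtype (limma adjusted p = 2.46e-05) and a 2.34-fold rise over R167Q (limma adjusted p = 0.00123). Drd2, the dopamine receptor that restrains prolactin, rose 3.24-fold over wildtype (limma adjusted p = 0.000312), and Crhr1, Ghsr and Esr1 rose 2.19-fold, 1.99-fold and 1.89-fold. Gnrhr, the gonadotropin-releasing hormone receptor, differed by 0.55 log2 units (limma adjusted p = 0.149). Of 9 prohormone processing and granule genes, 8 rose against wildtype and 7 against R167Q, beside 17.2% and 12.4% of all genes, with median log2 differences of 0.96 and 0.80. Cpe, which trims peptide hormones, rose 3.15-fold over wildtype, Pcsk1n, which binds the convertase PCSK1, 2.46-fold and the granin Chga 2.32-fold (limma adjusted p up to 0.000245).

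Neurons also use many of these receptors and granule genes. All 6 measured neuron markers rose in P81S against wildtype and against R167Q, beside 17.2% and 12.4% of all genes. Over the 25 alternatives the counts were 5 to 6 against wildtype and 3 to 6 against R167Q. The count of 3 came without P81S replicates 3 and 4 together. The mean of these markers was 11.70 to 12.10 in P81S and 10.84 to 11.44 in R167Q arrays, against 10.71 to 11.15 in wildtype arrays. The part of neurons in the counts for receptors and granule genes was not tested.

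Counts for signals around the pouch and the hypothalamus in P81S against wildtype stand beside 17.2% of all genes higher and 17.5% lower. Of 11 Rathke pouch signalling genes 2 rose, Fgf10 and Bmp2 by 0.80 and 0.82 log2 units, and 4 fell, Fgf8 by 0.92, Bmp4 by 0.50, Shh by 1.28 and Notch2, named outside the rule after its value was seen, by 0.59. The count of 4 was 1 to 4 when single arrays were left out, with 1 without wildtype replicate 1 or 2 and 2 without wildtype replicate 3 or P81S replicate 2 or 4. The Shh call was lost without P81S replicate 1 or 4 or any 1 of the wildtype arrays (limma adjusted p = 0.0502 to 0.112). The Bmp4 call was lost without P81S replicate 2 or wildtype replicate 1 or 2 (limma adjusted p = 0.0653 to 0.126). Of 14 hypothalamic genes 3 rose and 1 fell. Nkx2-1, the homeodomain factor of ventral hypothalamus, thyroid and lung, averaged 8.40 in P81S, 5.93 in R167Q and 6.07 in wildtype arrays, a 5.02-fold rise over wildtype (limma adjusted p = 0.00343). Its 4 P81S arrays ranged from 7.11 to 9.35 and overlapped no other array. Sim1 rose 2.62-fold, and Rax rose 2.04-fold with a limma adjusted p of 0.0449 that passed in 13 of 25 alternatives, failing in 6 that left out 1 array each of wildtype or R167Q and in those that left out P81S replicate 1 or 2 (limma adjusted p = 0.0877 and 0.0885). Trh, the releasing hormone whose receptor rose, fell by 1.53 on the log2 scale (limma adjusted p = 0.000886).

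The counts that follow, again for P81S against wildtype, stand beside the same 17.2% and 17.5% of all genes. Receptors of the pituitary hormones themselves gave 1 higher and 1 lower of 8 (Mc3r by 0.97, Mc5r by -1.07 log2 units), shares below those of all genes, and the receptors of thyrotropin and follicle-stimulating hormone, Tshr and Fshr, differed by 0.36 and -0.15 without passing. Of 6 thyroid follicle genes, Pax8 fell by 1.73 on the log2 scale and no other passed. Of 7 trophoblast markers, a cell type whose counterpart in primates and horses makes the alpha subunit, 0 rose and 3 fell, among them Tpbpa by 2.20. The trophoblast mean was 5.50 to 6.09 in P81S and 6.29 to 6.65 in R167Q arrays, against 6.33 to 6.57 in wildtype arrays. Gut and airway markers gave 1 higher and 1 lower of 8, squamous markers 2 higher of 8, and muscle and cartilage markers 1 higher of 8. Without P81S replicate 2, 3 gut and airway and 3 muscle and cartilage markers were higher. The lower gut and airway marker was lost without P81S replicate 2, 3 or 4, wildtype replicate 1 or 3 or any R167Q array and with the replicate block, and the higher muscle and cartilage marker was lost without wildtype replicate 2. Without P81S replicate 1, 2 thyroid follicle genes and 2 hormone receptors were lower, and the receptor count was also 2 without wildtype replicate 3. Leaving out P81S replicate 4 or any wildtype array left 2 trophoblast markers lower, and leaving out any wildtype or R167Q array left 1 squamous marker higher. In R167Q against wildtype, 0 genes of all these lists passed apart from Hesx1. Trhr passed there as higher without P81S replicate 1 (log2 difference 0.98, limma adjusted p = 0.0349) and with array weights (1.00, limma adjusted p = 0.0249).

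**Figure D3:**
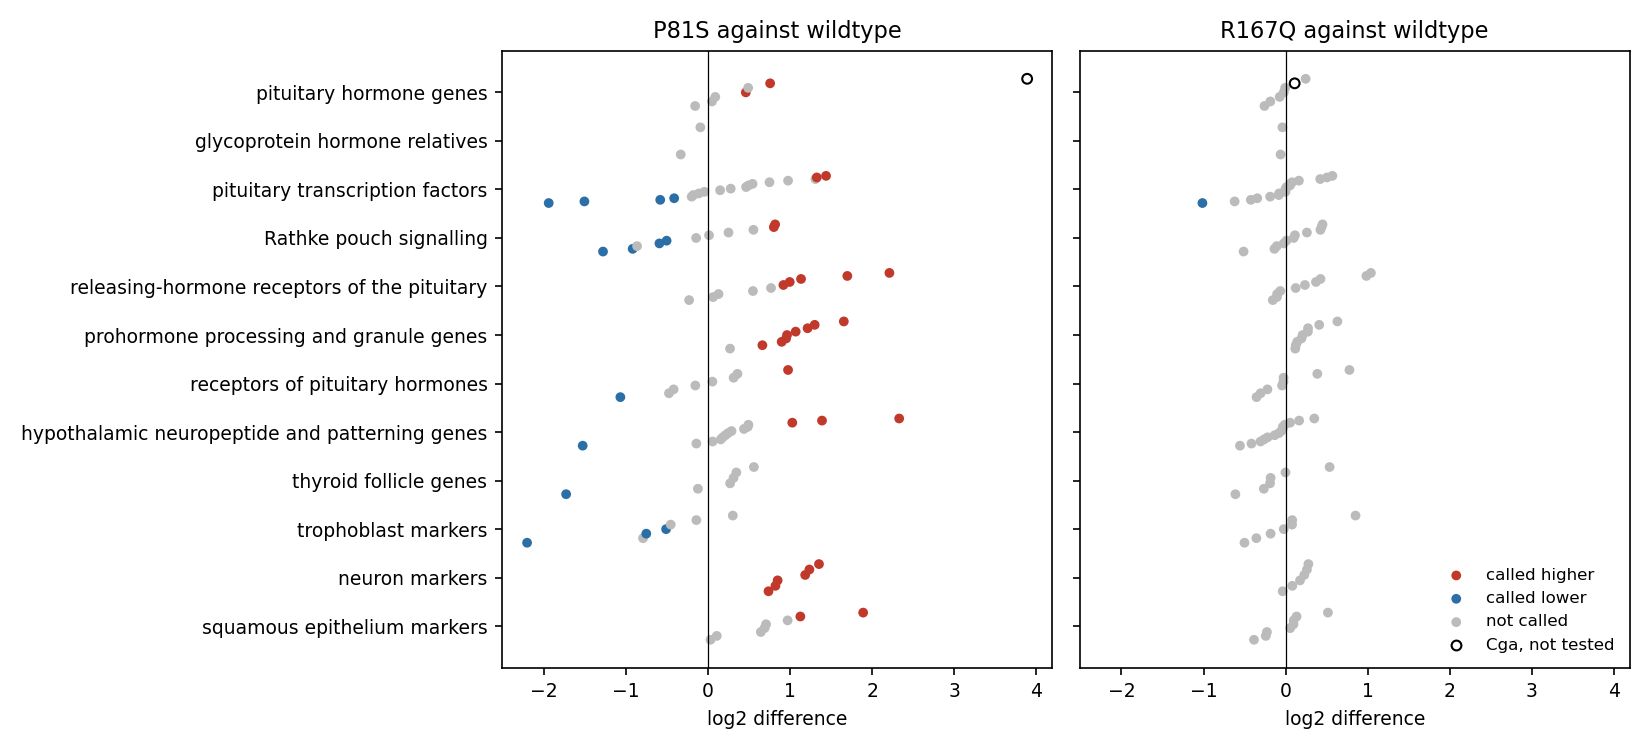
The log2 difference (x axis) of each gene of the pituitary and neighbouring lists (rows), P81S against wildtype on the left and R167Q against wildtype on the right. Red and blue points passed as higher and lower, grey points did not pass, and the open point is Cga, which was not tested. Of the granule genes 8 of 9 are red on the left and 0 on the right.

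The 5 genes whose log2 values were most like those of Cga over the 10 arrays were Iqsec2, Nat8, Ocel1, Rsph9 and Dip2a, with Pearson r of 0.970, 0.968, 0.966, 0.965 and 0.964. All points share the genotype groups, so these values are a description. Their log2 differences between P81S and wildtype were 0.48 to 0.86, far smaller than that of Cga. Iqsec2 read 8.16, 7.76, 7.93 and 8.44 in P81S arrays, in the same order as Cga from replicate to replicate. Nat8 and Dip2a kept that order too, while in Ocel1 and Rsph9 P81S replicate 3 lay above replicate 1. Among the members, r with Cga was 0.80 for Lhb and 0.78 for Fshb, and it was 0.35 for Pitx1, 0.19 for Pomc, -0.06 for Tshb and -0.32 for Lhx3. By this r Lhb ranked only 1923 and Fshb only 2243 among all genes. Within P81S, Lhb was highest in replicate 1 and did not keep the Cga order, while Fshb kept it.

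**Figure D4:**
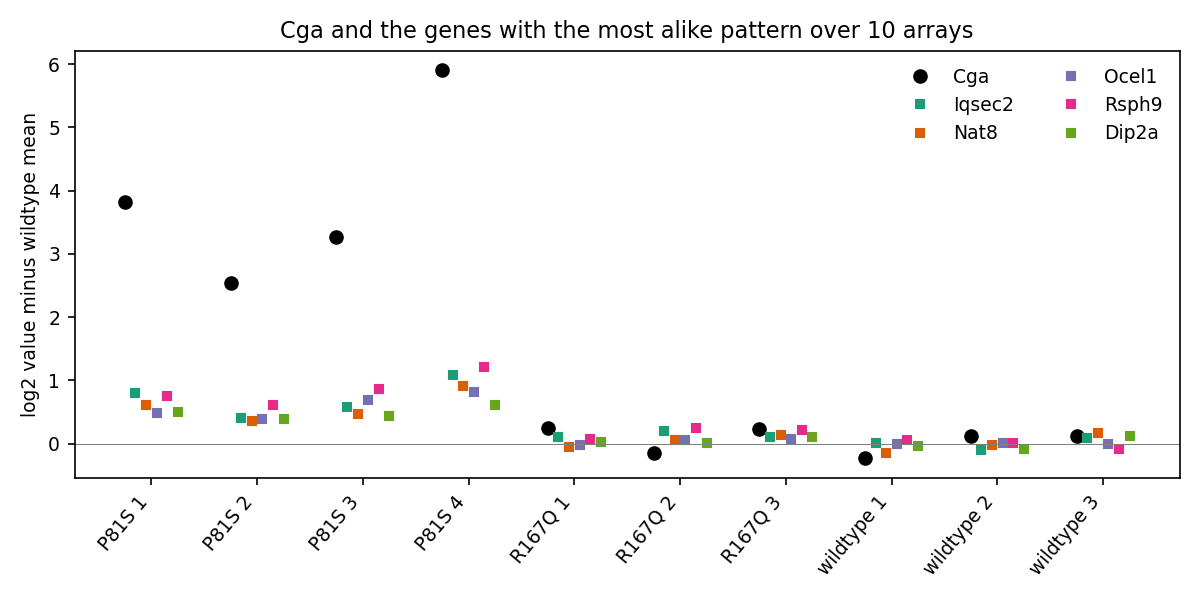
The log2 value minus the wildtype mean (y axis) of Cga and of the 5 genes most like it in each of the 10 arrays, P81S on the left and wildtype on the right. Cga reaches the greatest height in P81S replicate 4, and the other 5 genes are also highest there, at a much smaller size.

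Of the nearest 3 measured genes on each side of Cga on chromosome 4, Gm136 and Smim8 fell by 0.44 and 0.56 on the log2 scale in P81S against wildtype (limma adjusted p = 0.0174 and 0.0153), and neither call held without wildtype replicate 2 (limma adjusted p = 0.0522 and 0.0665). Zfp292, Mob3b, Ifnk and C9orf72 differed by 0.02, -0.16, 0.04 and 0.34 without passing. C9orf72 passed as higher without P81S replicate 1 (0.40, limma adjusted p = 0.0321) and with array weights (0.39, limma adjusted p = 0.00839). Over 577 brighter genes of chromosome 4, the median log2 value relative to the average of the R167Q and wildtype means lay between -0.07 and 0.05 in every array.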

How the data were processed

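Gene expression was measured on 10 1-colour Affymetrix arrays. The deposited values are log2 values per probe set; Partek and RMA appear in the submitters' processing notes, with no role or version. No detection calls were used, and precision is limited by how many arrays there are. Groups were taken from the labels.

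Of 28940 probe sets outside an unannotated control block, 21218 named 1 gene, giving 18820 genes. A linear model with 3 group means was fitted to all arrays with limma 3.58.1 in R 4.3.3 (lmFit, eBayes with trend, two-sided), with statmod 1.5.0 for random blocks; p-values were adjusted by Benjamini-Hochberg over all genes, and a gene passed at an adjusted p under 0.05. The script was tested on simulated data. The plan counted members other than Cga; Pou1f1 has no probe set here, so 6 were tested. Alternatives changed normalization, the dim filter, probe set choice, variance model, samples, clones and replicate block. Named genes were all members, up to 5 genes of a list with the smallest p in P81S against wildtype or 3 in another comparison, and the 5 genes most like Cga. The members and lists were chosen with earlier results of these data known. Promoters are from RefSeq GRCm38.p6, which held 6 of the 7 measured members. All 10 value columns were used.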

Additional observations from a re-analysis of the deposited data

How the results depend on the processing

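Under 25 alternatives, 16 of the 21 differences of single members kept their sign, and 5 turned in at least 1 without being called. The count of members that passed in P81S against wildtype was 1, and it was 3 with array weights (Lhb, Fshb and Tshb), 0 without P81S replicates 3 and 4, and 1 to 2 when single arrays were left out, the 2 coming without P81S replicate 2. In P81S against R167Q the count was 0, and it was 1 with array weights and 0 to 2 when single arrays were left out, the 2 again without P81S replicate 2. In R167Q against wildtype it was 0 in all of them. The cause was not tested. The replicate numbers did not pair the samples (correlations of deviations from -0.28 to 0.21), and with the replicate block the counts were 1, 0 and 0, as without it. The Cga difference ranged from 9.09-fold to 24.1-fold over wildtype and from 8.42-fold to 22.3-fold over R167Q. Leaving out dim genes removed Pomc, Tshb and Fshb, and Prl of the wider hormone list, for which signal over background limits what can be seen. The cutoff was a mean log2 value of 5.98, the median of the control block. Cga stayed in through its P81S values, since its R167Q and wildtype values reached only 5.68 and 5.55. The Cga folds are therefore taken over a reference at the dim level, and their size is limited in the same way.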
